A study of Mus musculus with 4 samples.

Results

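The alpha-arrestins measured here were Arrdc1, Arrdc2, Arrdc3, Arrdc4 and Txnip, read in RNA-seq libraries of soleus, a calf muscle, from mdx mice. They were taken as the rows whose gene symbol equals one of these names, which gave 5 of the 24054 symbols in the table. The family was chosen on its measured counts in these same libraries, because Arrdc2 differed widely between the groups and the other members did not, so the levels of the 5 genes are given as a description and no test of them is used as support. The mice were female mdx animals, which carry a dystrophin mutation on the C57BL/10ScSn background in every group, aged 8 weeks when the infusions began. Into the femoral vein they received either mouse cardiosphere-derived cells (mCDC), grown from the heart of a C57BL/10ScSn/J mouse and used at passage 5, or vehicle (IMDM medium), once a month over 12 months of treatment. The cells came from 1 donor heart, so the mCDC group stands for 1 donor, and the number of cell preparations is not stated. There were 2 mCDC libraries and 2 vehicle libraries, with 22481391 to 27187425 expected counts each. The labels number the libraries without saying which mouse each came from, so the p-values given for other genes measure the spread between these samples, which may be partly technical.

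Alpha-arrestins are cytoplasmic adaptor proteins built on the arrestin fold. Most carry PPxY motifs that bind the WW domains of NEDD4-family ubiquitin ligases, and through them they direct ubiquitination, endocytosis and sorting of membrane cargo such as receptors and nutrient transporters. Txnip, the best known member, binds thioredoxin and promotes internalisation of glucose transporters, and its transcription follows glucose through the Mondo and Mlx factors. In skeletal muscle, Arrdc2 and Arrdc3 are known as transcripts that respond to glucocorticoids and fasting.

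Arrdc2 was lower in both mCDC muscles than in both vehicle muscles. Its level was 5.83 and 5.12 CPM (read counts scaled to a library total of 1e+06) in mCDC 1 and mCDC 2, against 40.4 and 22.7 CPM in vehicle 1 and vehicle 2. The groups did not overlap, and the lowest vehicle value was 3.89 times the highest mCDC value. The mean was 5.47 ± 0.506 CPM in mCDC muscles and 31.5 ± 12.5 CPM in vehicle muscles (SD, n = 2 each), a ratio of vehicle to mCDC of 5.76. On the log2 scale the fitted difference, mCDC minus vehicle, was -2.52, which ranked 7 from the lowest among 13652 tested genes. The reads behind these levels numbered 154 and 112 in mCDC muscles and 1059 and 624 in the vehicle libraries. Exact Poisson 95% intervals, which cover counting error only, ran from 131 to 180 and from 92.2 to 135 for the mCDC counts. In the vehicle libraries they ran from 996 to 1125 and from 576 to 675. The vehicle libraries differed from each other by 1.78 times and the mCDC libraries by 1.14 times. In whole muscle, fewer cells of a type and less RNA per cell cannot be told apart, and this holds for every gene below.

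The gene lies on the minus strand of chromosome 8 at chr8:70835129-70839720 (GRCm38), with 7 annotated transcripts. Its promoter window, from 250 bases before to 50 after the transcription start, is shown because it belongs to the member that differed and lacks the searched elements of glucocorticoid, FoxO and clock factors. The RefSeq sequence (GRCm38.p6) at chr8:70839671-70839970, minus strand, reads as follows, with capitals marking CCAAT boxes, here all in the reverse orientation.
Arrdc2 promoter: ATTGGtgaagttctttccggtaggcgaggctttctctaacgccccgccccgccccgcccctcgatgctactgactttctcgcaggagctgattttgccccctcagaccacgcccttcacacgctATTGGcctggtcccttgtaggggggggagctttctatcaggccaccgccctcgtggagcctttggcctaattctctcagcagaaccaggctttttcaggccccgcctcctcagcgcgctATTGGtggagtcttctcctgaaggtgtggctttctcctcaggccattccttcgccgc
Both strands were searched for TGTTCT (the core word of the glucocorticoid response element), GTAAACA (FoxO), TTATGTAA (the D-box of Dbp, Hlf and Tef), CACGTG (the E-box), a paired element of the carbohydrate response type and CCAAT. Counting the last base before the start as -1, the window held CCAAT boxes beginning at -250, -126 and -7, and none of the other letters. At least 3 CCAAT boxes occurred in 3.37% of 32851 promoter windows of the same length. TGTTCT occurred in 19.0% of them, GTAAACA in 3.65% and TTATGTAA in 0.938%. Having no match says only that these letters are not in this window. Only 1 of the 7 annotated transcripts was matched to this start, and other starts and elements farther away were not searched.

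Arrdc3, an adaptor known for receptor trafficking, was high in 1 library only. Its level was 36.7 and 37.4 CPM in mCDC 1 and mCDC 2, 71.3 CPM in vehicle 1 and 36.0 CPM in vehicle 2. Vehicle 2 lay below both mCDC libraries, so the groups overlapped. The fitted log2 difference was -0.53, and it became 0.04 without vehicle 1. Arrdc3 and Arrdc2 were thus both highest in vehicle 1, but in vehicle 2 Arrdc2 was still above the mCDC muscles and Arrdc3 was not. Arrdc3 lies on the plus strand at chr13:80883384-80896042.

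Arrdc1, which recruits ESCRT proteins to bud vesicles from the plasma membrane, was low throughout. It measured 4.96 and 3.11 CPM in mCDC muscles and 4.62 and 6.48 CPM in vehicle muscles. The mCDC 1 value lay between both vehicle values. The fitted log2 difference was -0.45, from 68 to 178 reads per library. Arrdc4, a paralog close to Txnip that has been tied to glucose transporter traffic, measured 6.74 and 10.1 CPM in mCDC muscles and 7.25 and 9.06 CPM in vehicle muscles. Its vehicle values lay inside the mCDC range, with a log2 difference of 0.04. Arrdc1 lies at chr2:24925352-24935252 and Arrdc4 at chr7:68736995-68749241, both on the minus strand.

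Txnip was the most abundant member, and its vehicle replicates lay the farthest apart of the 5 genes. It measured 486 and 348 CPM in mCDC 1 and mCDC 2, and 323 and 853 CPM in vehicle 1 and vehicle 2. The vehicle libraries held both the lowest and the highest value and differed from each other by 2.64 times. The log2 difference of -0.50 became 0.37 without vehicle 2 and -1.03 without vehicle 1. Txnip lies on the plus strand at chr3:96557957-96561883. Its expected counts were not whole numbers, so some of its reads were divided among transcripts of more than 1 gene, whereas those of the other 4 members were whole.

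**Figure D1:**
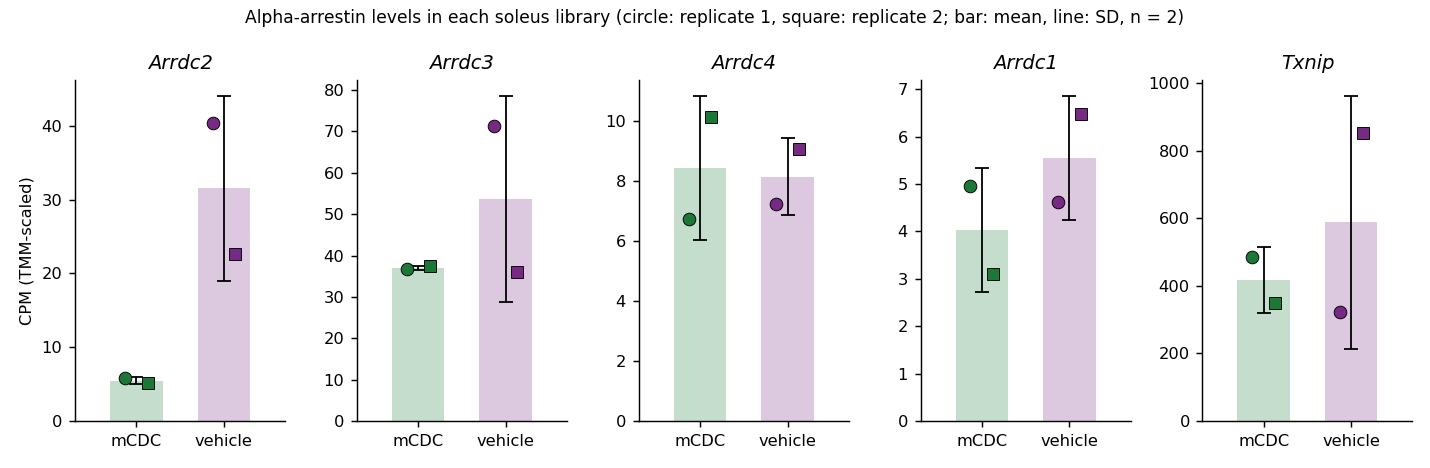
Level of each alpha-arrestin in CPM (linear axes from 0, each gene on its own scale) in the 2 mCDC and the 2 vehicle libraries, each point 1 library, each bar the group mean and each line the SD. For Arrdc2 both mCDC points, at 5.83 and 5.12 CPM, sit below both vehicle points, at 40.4 and 22.7 CPM, and for each of the other 4 genes the groups overlap.

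The promoters of Txnip and Arrdc4 are shown because they hold searched motifs that the Arrdc2 window lacks. Capitals mark CCAAT boxes in either orientation, the E-box of Arrdc4, and the FoxO element and paired carbohydrate response element of Txnip. The windows are chr3:96557707-96558006 on the plus strand and chr7:68749189-68749488 on the minus strand.
Txnip promoter: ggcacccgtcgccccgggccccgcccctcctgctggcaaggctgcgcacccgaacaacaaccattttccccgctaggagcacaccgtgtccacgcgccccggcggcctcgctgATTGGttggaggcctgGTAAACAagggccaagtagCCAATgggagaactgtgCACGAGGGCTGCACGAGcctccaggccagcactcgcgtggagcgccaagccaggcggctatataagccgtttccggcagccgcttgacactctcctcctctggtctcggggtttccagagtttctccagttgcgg
Arrdc4 promoter: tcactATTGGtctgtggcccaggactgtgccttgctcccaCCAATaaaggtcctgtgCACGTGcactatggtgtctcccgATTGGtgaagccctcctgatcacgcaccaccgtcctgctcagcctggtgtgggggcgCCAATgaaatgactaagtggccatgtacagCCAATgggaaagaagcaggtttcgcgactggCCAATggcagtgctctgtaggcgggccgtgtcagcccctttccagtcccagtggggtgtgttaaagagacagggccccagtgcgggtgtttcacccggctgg
In Txnip the FoxO letters lay at -121 to -115, and the paired element, 2 copies of CACGNG with 5 bases between them, lay at -85 to -69. That pair occurred in 16 of the 32851 windows (0.0487%) and the FoxO letters in 3.65%. The Arrdc4 window held CACGTG at -193 to -188, found in 7.15% of windows, and 6 CCAAT boxes, a number reached by 0.0791% of windows, but not the paired element. Across the 7 RefSeq windows of the 5 genes, no window held TGTTCT or TTATGTAA. A match is a description of the letters and does not show that a factor binds there.

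The call used for all genes was a fold above 1.5 with an unadjusted p below 0.05 by edgeR's quasi-likelihood test. Over all 13652 tested genes, 2.74% were called lower and 1.26% higher, and of the 5 alpha-arrestins 1 (Arrdc2) lay among the former and 0 among the latter. Values in both mCDC libraries below both vehicle libraries occurred in 19.4% of all tested genes and in 1 of 5 alpha-arrestins, and values above in 19.2% and in 0 of 5. Since the genes were chosen on this contrast, nothing is read from these counts. No gene in the table had an adjusted p below 0.05 with edgeR, although 947 had an unadjusted p below 0.05, while DESeq2 gave 48 genes an adjusted p below 0.05 among the 18132 with any count and 53 when run on the same 13652 genes as edgeR. A gene described as called here has therefore passed the unadjusted threshold alone.

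Each library was left out in turn, again as a description of the values the genes were chosen on. The log2 difference of Arrdc2 ran from -2.88 to -2.05. That of Arrdc3 ran from -0.95 to 0.04 and that of Txnip from -1.03 to 0.37. For Arrdc4 the value ran from -0.27 to 0.32, and for Arrdc1 from -0.84 to -0.16. Arrdc3, Arrdc4 and Txnip changed sign. The sign of Arrdc2 was fixed by its choice, since its groups do not overlap, and the removal of vehicle 1 moved its value by more than the replicate spread.

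**Figure D2:**
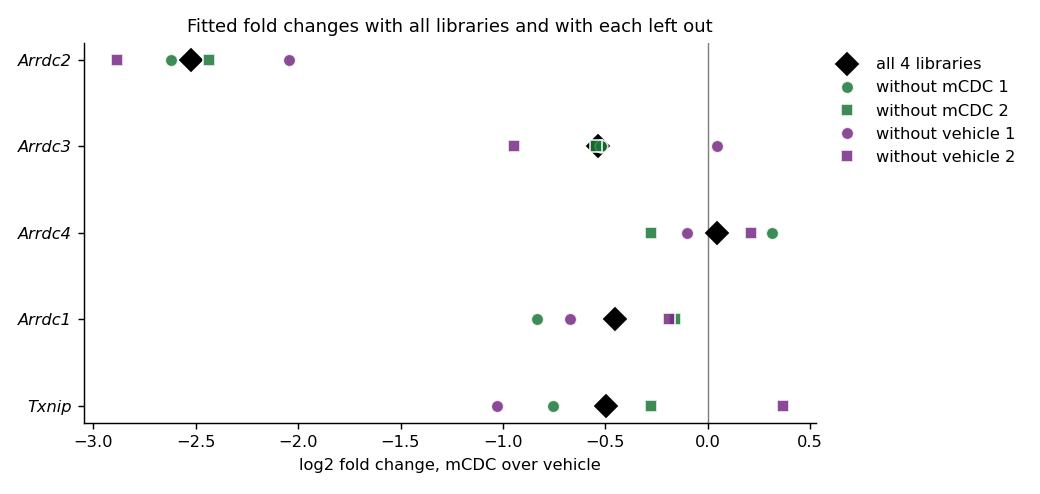
Log2 difference (mCDC minus vehicle) of each alpha-arrestin with all 4 libraries and after removal of each 1 of them. Arrdc2 runs from -2.88 to -2.05, while Arrdc3, Arrdc4 and Txnip cross 0.

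Divided by transcript length, the family was dominated by Txnip. With the median length of each gene's annotated transcripts, Txnip measured 751 and 539 CPM per kb in mCDC muscles and 500 and 1319 CPM per kb in vehicle muscles, which was 85.3% to 96.1% of the summed level of the 5 genes in each library. With the longest transcript in place of the median its mean over the 4 libraries was 178 rather than 777 CPM per kb, and its share 74.5% to 92.5%. Arrdc2 measured 6.82 and 5.98 CPM per kb in mCDC muscles and 47.3 and 26.6 CPM per kb in vehicle muscles. Its share of the summed level was 0.872% and 1.05% in mCDC muscles and 8.07% and 1.94% in vehicle muscles, or 1.32% and 1.56% against 11.2% and 2.96% with the longest transcript. Arrdc3 measured 15.6 and 15.9 CPM per kb in mCDC muscles and 30.4 and 15.4 CPM per kb in vehicle muscles.

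With the median length, Arrdc1 and Arrdc4 stood at the bottom of the order. Arrdc1 ranged from 3.71 to 7.72 CPM per kb and Arrdc4 from 2.68 to 4.03 CPM per kb, so these neighbours overlapped. With the longest transcript Arrdc2 fell among them in mCDC muscles, at 2.48 and 2.17 CPM per kb beside 2.98 and 1.86 for Arrdc1 and 1.73 and 2.60 for Arrdc4. The order of Arrdc2 and Arrdc3 differed between the groups. The level of Arrdc3 divided by that of Arrdc2, per kb, was 2.29 and 2.66 in mCDC muscles and 0.643 and 0.578 in vehicle muscles. With the longest transcript in place of the median the same ratio was 3.59 and 4.16 in mCDC muscles and 1.01 and 0.904 in vehicle muscles, so Arrdc3 was the higher in mCDC muscles on both lengths, while in vehicle muscles the order depended on the length used.

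Transcripts of the proteins that act with alpha-arrestins at the membrane were grouped by role. These lists and the regulator lists below were chosen with earlier results of these data known. Their counts of calls and medians are therefore a description. Over all tested genes the median log2 difference was -0.01, with 6609 genes above 0 and 7043 below. Of 10 tested genes of the NEDD4 family of ubiquitin ligases and their Ndfip adaptors, 1 was called lower and 0 higher, with a median of -0.05 that became 0.10 without vehicle 1. That gene was Hecw2, a ligase of the family, at 1.52 and 1.60 CPM in mCDC libraries and 2.25 and 3.57 CPM in vehicle libraries (log2 difference -0.90). It lost the call with DESeq2 and without either mCDC library or vehicle 2. Nedd4 itself, the most abundant of them per length, measured 324 and 286 CPM against 401 and 314 CPM and was not called. Wwp1, a further ligase of the family, measured 127 and 112 CPM against 164 and 150 CPM, without overlap, and did not reach the fold of the call.

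The ESCRT genes, whose products sort ubiquitinated cargo into vesicles, gave 0 calls of 13, with a median of 0.11 that became 0.0026 without vehicle 2. Tsg101, the ESCRT subunit that binds Arrdc1, measured 58.5 and 59.7 CPM in mCDC libraries and 57.4 and 52.5 CPM in vehicle libraries. Pdcd6ip, which encodes the ESCRT-associated protein ALIX and was the most abundant of them per length, measured 118 and 128 CPM against 126 and 96.9 CPM. Of the 5 tested genes for other proteins with an arrestin-like fold, 0 were called. Their median of -0.07 became 0.07 without vehicle 1. They include the beta-arrestins, of which Arrb1 measured 7.08 and 5.94 CPM against 6.41 and 8.00 CPM. Vps26a, a retromer subunit, measured 56.9 and 57.9 CPM against 59.9 and 51.3 CPM. It was the most abundant per length of the 4 that had an annotated length.

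Among the membrane cargo, Slc2a1 was the 1 gene of 8 called, and it was higher in mCDC muscles. Slc2a1 encodes the glucose transporter GLUT1, whose internalisation Txnip promotes. It measured 31.9 and 37.1 CPM in mCDC 1 and mCDC 2 and 21.2 and 17.8 CPM in vehicle 1 and vehicle 2. The means were 34.5 ± 3.62 and 19.5 ± 2.45 CPM (SD, n = 2 each), and the groups did not overlap. The log2 difference was 0.82, with an adjusted p of 0.462 by edgeR's quasi-likelihood test with Benjamini-Hochberg adjustment, and the gene met the unadjusted call under each of the 11 alternatives run. Slc2a4, the gene of the insulin-responsive transporter GLUT4 and the most abundant cargo gene per length, measured 634 and 459 CPM against 556 and 515 CPM. Insr, the insulin receptor gene, had a log2 difference of -0.14. The median of the cargo list was -0.05 and became 0.32 without vehicle 1.

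The thioredoxin system, which holds thioredoxin, bound by Txnip, beside reductases and peroxiredoxins, gave 0 calls of 10 genes. Its values were small but mostly on 1 side, with 9 of 10 log2 differences above 0 and a median of 0.20. The median was 0.33 without mCDC 1 and 0.14 without mCDC 2. In 9 of the 10 genes the highest library was mCDC 2, as it was for 3833 of the 13652 tested genes. Txn1, the cytosolic thioredoxin, measured 36.5 and 46.1 CPM in mCDC libraries and 35.6 and 37.0 CPM in vehicle libraries. Txn2, the mitochondrial thioredoxin and the most abundant of them per length, measured 242 and 268 CPM against 209 and 210 CPM. Txnrd2, the mitochondrial thioredoxin reductase, measured 17.5 and 18.8 CPM against 13.3 and 14.7 CPM.

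The Mondo and Mlx network, which carries the glucose response of Txnip and Arrdc4, gave 0 calls of 8, with a median of -0.11. Mlxip, which encodes MondoA, measured 96.4 and 68.1 CPM in mCDC libraries and 103 and 85.8 CPM in vehicle libraries. Mlxipl, which encodes ChREBP, is the most abundant of the network per length and measured 238 and 178 CPM against 195 and 225 CPM.

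The muscle genes known to respond to glucocorticoids and FoxO factors divided into both directions. Of 22 tested, 6 were called lower and 4 higher in mCDC muscles, with a median log2 difference of -0.38 and 13 of 22 values below 0. Ddit4, an inhibitor of mTORC1 signalling, had the lowest of the 22 values. It measured 6.33 and 6.08 CPM in mCDC 1 and mCDC 2 and 27.8 and 12.8 CPM in vehicle 1 and vehicle 2, a log2 difference of -1.71 with an adjusted p of 0.462 by edgeR. As with Arrdc2, the mCDC libraries lay close together, both vehicle libraries lay above them, and vehicle 1 was the higher.

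Tsc22d3, which encodes the glucocorticoid-induced leucine zipper, was called lower, at 61.6 and 60.8 CPM in mCDC libraries against 130 and 91.6 CPM in vehicle libraries. Fbxo32, the gene of the muscle ubiquitin ligase atrogin-1, was called lower at 271 and 211 CPM against 426 and 340 CPM. Foxo3, a transcription factor of the muscle atrophy programme, measured 3.94 and 3.34 CPM against 11.5 and 4.51 CPM. The kinase gene Sgk1 (log2 difference -0.66) and Zbtb16, the gene of the zinc finger protein PLZF (-0.63), were the other called genes on this side. Fbxo32 and Zbtb16 also lost their calls without mCDC 2.

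The 4 genes called higher included the metallothioneins Mt1 and Mt2, metal-binding proteins, whose highest values came from mCDC 2. Mt2 measured 44.7 and 149 CPM in mCDC libraries and 38.1 and 26.2 CPM in vehicle libraries. Without mCDC 2 the log2 differences went from 1.17 to 0.27 for Mt1 and from 1.59 to 0.48 for Mt2, and both calls were lost there, without vehicle 2 and with DESeq2. Pdk4, a kinase that inhibits pyruvate dehydrogenase and the most abundant gene of the list per length, was called higher at 1583 and 1057 CPM against 769 and 894 CPM, a call it lost without mCDC 1 and without vehicle 1. Cdkn1a, an inhibitor of the cell cycle, was called higher at 75.4 and 97.8 CPM against 40.8 and 52.1 CPM. Among the rest, Fkbp5, a chaperone of the glucocorticoid receptor, measured 55.3 and 26.9 CPM against 30.1 and 26.5 CPM. Trim63, the gene of the ligase MuRF1, had a log2 difference of 0.17. Klf9 (-0.39), Pik3r1 (-0.46) and Foxo1 (-0.37) were lower in mCDC muscles without overlap. None of these genes was called. Of the 22 genes, 9 were lower and 5 higher without overlap, beside 19.4% and 19.2% of all tested genes.

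The lower side of this list depended in part on vehicle 1. All 6 of its genes called lower were highest in vehicle 1, as Arrdc2 and Arrdc3 were, whereas of the 374 genes called lower over all genes, 133 (35.6%) were highest in vehicle 1 and 241 in vehicle 2. Without vehicle 1 the median of the list moved from -0.38 to 0.00093, and Ddit4, at -1.04, kept its call. On the higher side Mt1 stood at 1.38, Mt2 at 1.89, Cdkn1a at 0.74 and Pdk4 at 0.57. Among the calls lost, Tsc22d3 stood at -0.58, Fbxo32 at -0.49 and Zbtb16 at -0.39, against -0.30 for Foxo3 and -0.16 for Sgk1. In the same comparison Arrdc2 stood at -2.05. Without vehicle 2 the list had 9 genes called lower and 3 higher, with a median of -0.53, and DESeq2 called 7 lower and 2 higher. What set vehicle 1 apart in these genes was not tested.

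**Figure D3:**
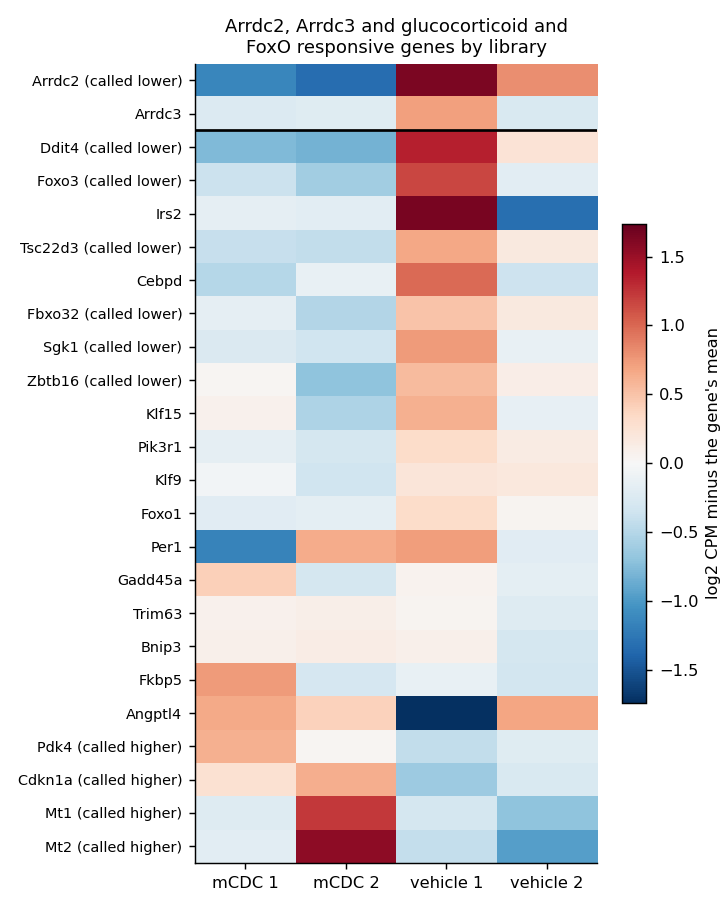
Level of Arrdc2, Arrdc3 and 22 glucocorticoid and FoxO responsive genes in each library, as log2 CPM minus the gene's mean over the 4 libraries (red above, blue below the mean). Arrdc2, Arrdc3 and all 6 genes called lower are reddest in vehicle 1, and without that library 1 of the 6, Ddit4, remained called.

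Clock output genes, which follow the circadian cycle in muscle, held several members that were lower in mCDC muscles. Of 10 tested, 5 were called lower and 0 higher, with a median log2 difference of -0.58. Per2 and Per3, repressors of the clock, measured 8.90 and 14.3 CPM against 29.0 and 23.4 CPM, and 19.8 and 19.0 CPM against 39.3 and 43.8 CPM. The D-box factors Dbp and Hlf were called lower, Dbp at 93.2 and 138 CPM against 170 and 206 CPM and Hlf at a log2 difference of -1.38. Ciart, a further clock repressor, was the fifth at -0.80. Tef, a D-box factor and the most abundant of the list per length, measured 166 and 169 CPM against 216 and 220 CPM and did not reach the fold of the call. Nr1d1, the gene of the clock repressor REV-ERB alpha, lay the other way without being called, at 292 and 268 CPM in mCDC muscles against 156 and 251 CPM. Per1, also a glucocorticoid responsive gene, varied widely within the groups, at 30.9 and 109 CPM against 115 and 60.5 CPM, and was not called. Dbp lost its call without mCDC 1 or vehicle 2, and Ciart lost it without mCDC 1, vehicle 1 or vehicle 2 and with no filter on low counts. The number called lower fell to 3 without mCDC 1 (median -0.41) and to 3 without vehicle 2, where 1 gene was called higher, and the median reached -1.04 without mCDC 2.

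Genes of the opposite phase gave 2 calls of 6, both higher in mCDC muscles. Arntl, the core activator BMAL1, measured 19.9 and 14.2 CPM against 8.78 and 10.1 CPM. Npas2, a paralog of Clock, had a log2 difference of 0.96. Npas2 lost its call with DESeq2 and without mCDC 1, vehicle 1 or vehicle 2, and Arntl lost it without mCDC 1. The median of the 6 was 0.03, and it became 0.38 without vehicle 1 and -0.10 without mCDC 1. The hour at which each muscle was taken is not given in the sources used here, so it cannot be told apart from the treatment.

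**Figure D4:**
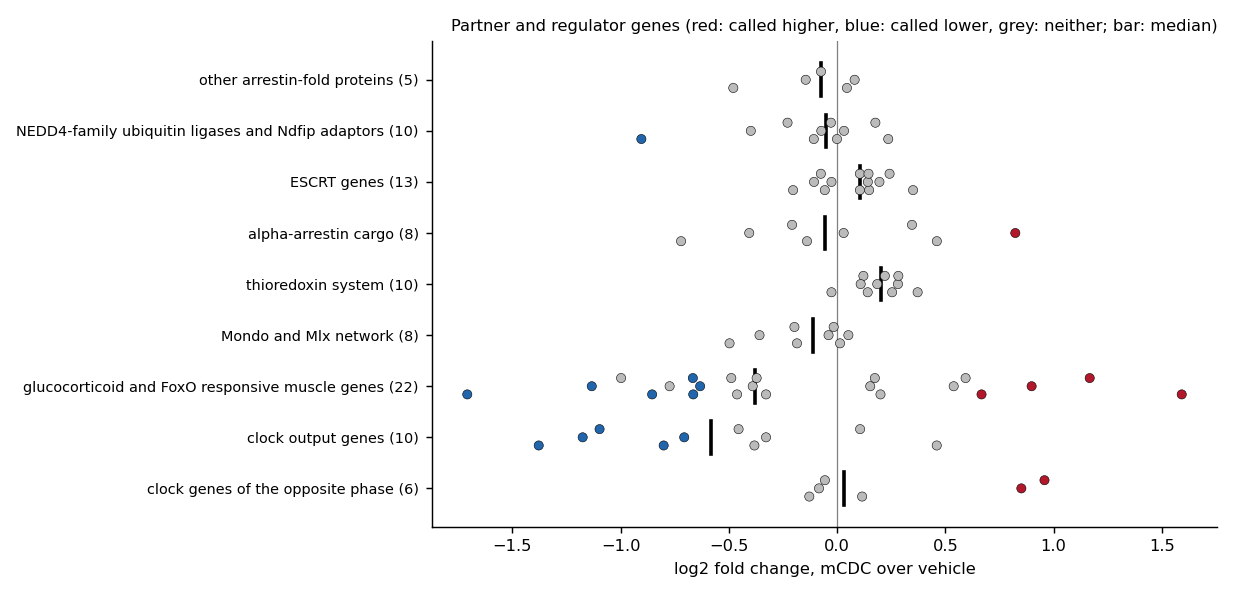
Log2 differences (mCDC minus vehicle) of the tested genes of each list of partners and regulators, each point 1 gene (red called higher, blue called lower, grey neither) and each bar the median. The clock output list has its median at -0.58 and the glucocorticoid and FoxO list at -0.38, beside -0.01 for all tested genes.

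Genes that followed the course of Arrdc2 over the 4 libraries were named by the Euclidean distance between log2 CPM values, each gene centred on its own mean, among 13651 other tested genes. The 5 nearest were Gm3317 (distance 0.51), Pdpr (0.80), Nt5c1a (0.83), Ddit4 (0.89) and Muc4 (0.91). Pdpr, the regulatory subunit of pyruvate dehydrogenase phosphatase, measured 2.27 and 2.12 CPM in mCDC libraries and 9.86 and 5.09 CPM in vehicle libraries, from counts that were not whole. Nt5c1a, a cytosolic nucleotidase of muscle, had 13 and 4 reads against 56 and 27. Gm3317 and Muc4 rested on few reads, with 0 and 0 against 13.05 and 10.93 for Gm3317, which shares reads with other genes, and 2 and 2 against 13.48 and 15 for Muc4. Ddit4 was also a member of the glucocorticoid and FoxO list, and it was the nearest of the 5 with over 100 reads in every library.

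The 3 genes with the most opposite course were Lor, Has2 and Hbegf. Hbegf, an EGF-family growth factor, had enough reads to read a level, at 19.4 and 34.4 CPM in mCDC libraries and 7.17 and 6.66 CPM in vehicle libraries. Lor had 32 and 18 reads against 2 and 3, and Has2 had 13 and 10 against 1 and 6. The other alpha-arrestins were not among the nearest genes. Arrdc3 ranked 622 and Arrdc1 ranked 1694, while Txnip and Arrdc4 ranked 8839 and 9543.

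**Figure D5:**
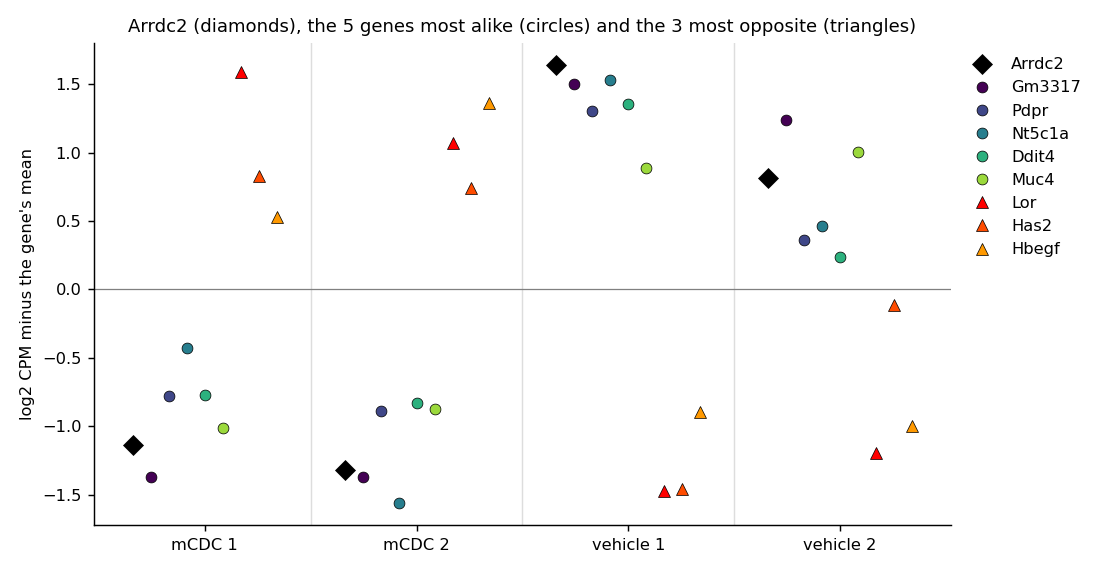
Log2 CPM of Arrdc2 (diamonds), the 5 genes with the most similar course (circles) and the 3 with the most opposite course (triangles), each minus the gene's own mean, in the 4 libraries. Arrdc2 and the circles lie below 0 in both mCDC libraries and above 0 in both vehicle libraries, and the triangles lie the other way.

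Markers of the cell types in the muscle were measured beside these genes. Myosin and other slow fibre genes summed to 80830 to 98590 CPM with 0 called, so the markers of a slow muscle such as soleus were present. The summed endothelial markers were 128 and 102 CPM in mCDC 1 and mCDC 2 and 112 and 231 CPM in vehicle 1 and vehicle 2, with 6 of 6 highest in vehicle 2 and 1 called lower. Fibroblast markers summed to 320 and 279 CPM against 307 and 515 CPM, again with 6 of 6 highest in vehicle 2 and 2 called lower, and 5 of 5 blood markers and 5 of 6 Schwann cell markers were highest there. So were 5 of 8 fast fibre genes, with 0 called, among which Myh4 varied most, at 2096 and 47.5 CPM in mCDC muscles against 163 and 411 CPM. The haemoglobin gene Hba-a2 was the 1 blood marker called lower, at 14.6 and 14.8 CPM in mCDC muscles against 28.6 and 31.7 CPM, and so was high in vehicle 1 too. Txnip was highest in vehicle 2 as well, and the part of these cells in its level was not tested. Arrdc2 and Arrdc3 were highest in vehicle 1, where the endothelial, fibroblast and blood sums lay within or below the range of the mCDC libraries. Some single markers differed from these sums. Both mCDC libraries lay below both vehicle libraries for 1 of 6 endothelial, 3 of 6 fibroblast and 2 of 5 blood markers. The called endothelial gene Vwf measured 12.2 CPM in vehicle 1 against 9.54 and 7.08 CPM in mCDC 1 and mCDC 2. The called fibroblast genes were Lum, at 14.8 against 9.998 and 11.5 CPM, and Pdgfra, at 6.98 against 6.70 and 5.21 CPM. The part of these cells in the levels of Arrdc2 and Arrdc3 was not tested. Adipocyte markers stood highest in vehicle 1 for 5 of 6 genes, among them Adipoq, the adiponectin gene, at 5.46 CPM there against 3.33 and 3.34 CPM in mCDC 1 and mCDC 2 and 1.49 CPM in vehicle 2. Their sum was 152 and 149 CPM in mCDC muscles, 187 CPM in vehicle 1 and 217 CPM in vehicle 2, and 0 of 6 were called. Fabp4 made up most of the sum in each library, at 115 and 114 CPM, 124 CPM and 200 CPM. The other adipocyte markers were each highest in vehicle 1 and lowest in vehicle 2. The part of adipocytes in the levels of Arrdc2 and Arrdc3 was not tested. Of 6 genes of regenerating fibres and myoblasts, the myogenic factors Myog (log2 difference 1.07), Myod1 (0.84) and Pax7 (0.76) were called higher in mCDC muscles, while Myh3 (-0.15), Myh8 (-0.12) and Myf5 (0.03) were not called. Of 6 macrophage markers Cd68 was called higher, at 4.13 and 15.4 CPM against 2.71 and 4.15 CPM, so its groups overlapped and mCDC 2 alone stood apart. Csf1r was called lower (-0.67), and Adgre1 (-0.55), Cd163 (-0.52), Mrc1 (-0.09) and Itgam (0.18) were not called.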

How the data were processed

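RNA-seq of 2 mCDC and 2 vehicle soleus libraries was used. The authors mapped reads to a UCSC transcript set with Bowtie2 2.1.0 and deposited RSEM 1.2.15 expected counts (versions and the mm10 build per the submitters' processing notes) per gene symbol, estimates that divide shared reads, so 15.7% of values were not whole. The labels and the study's methods name different library kits. Here expected counts were rounded, filtered with filterByExpr, scaled by TMM and tested with edgeR 4.0.16 (quasi-likelihood test, fold above 1.5 and unadjusted p below 0.05, the study's thresholds) over 13652 genes. CPM are unrounded counts scaled to a TMM-adjusted library total of 1e+06, and log2 CPM used a prior count of 2. Levels per kb used GENCODE M21 transcript lengths. Promoters came from RefSeq tables of GRCm38.p6.

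The members and lists were chosen with earlier results of these data known. Named genes were the members, every called gene of the partner and regulator lists, the most abundant gene of each per length, Slc2a1, Slc2a4 and Insr, and the 5 genes most like and 3 most opposite to Arrdc2. Arrb1, Tsg101, Txn1, Txnrd2, Mlxip, Fkbp5, Trim63, Klf9, Pik3r1, Foxo1, Wwp1, Nr1d1, Per1 and the cell markers were added after their values were seen. Some genes that this rule names are not reported here. The alternatives were DESeq2 1.42.0 (on all genes with a count and, added after seeing the data, on the genes tested with edgeR), RLE size factors, other count filters, a replicate block, the legacy quasi-likelihood form and leaving out each library.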

Additional observations from a re-analysis of the deposited data

How the results depend on the processing

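Without 1 library, that arm has 1 sample, which is assumed to vary like the other group. The number of genes called higher then ran from 112 (without mCDC 2) to 397 (without mCDC 1), beside 172 with all libraries, and was 273 without vehicle 1. The number called lower ran from 236 (without mCDC 2) to 834 (without vehicle 1), beside 374. The log2 difference of Arrdc2 ran from -2.88 to -2.05, that of Arrdc3 from -0.95 to 0.044 and that of Txnip from -1.03 to 0.37. The cause of these moves was not tested. The alternatives were also read for called genes of the partner and regulator lists, list medians and levels per length. Called cell markers were not followed gene by gene. Of the values followed, 369 stayed on the same side of the threshold or within the replicate spread. A further 34 kept direction but lost the call, 20 moved by more than the replicate spread and 0 called values changed sign. Among the members' log2 differences and the counts of calls, 69 did the first and 8 moved, among them Arrdc2 without vehicle 1. With the replicate block Arrdc2 stood at -2.48, Arrdc3 at -0.46 and Txnip at -0.35, with 172 genes higher and 308 lower. The labels share replicate numbers, but deviations from the group means of mCDC 1 and vehicle 1 had a correlation of -0.039 over 13652 genes, so the numbers were not taken as pairs. DESeq2 gave -2.52 for Arrdc2. RLE size factors, other count filters and the legacy form left both counts of calls within 1.5 times. There were 0 adjusted calls by edgeR (947 genes at an unadjusted p below 0.05) and 48 by DESeq2 over 18132 genes. DESeq2 on the same 13652 genes, chosen after seeing the data, gave 53, with 148 genes called higher and 279 lower by the unadjusted rule. Counting error weighs most where reads are few, for Arrdc1 at 68 to 178 reads and for Arrdc2 in mCDC muscles at 112 and 154.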

Other observations

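The paired carbohydrate response element in the Txnip promoter was found in windows of 15 genes, of which 11 were tested for expression. Of these, 0 were called by edgeR in either direction at an unadjusted p below 0.05 with a fold above 1.5, and the median log2 difference was 0.02. They include Nfkb2 (0.42) and Fnip1 (-0.34) beside Txnip (-0.50), named after their values were seen. Arrdc5, a further gene of the family in name, had 4 and 2 reads in mCDC muscles against 6 and 2 in vehicle muscles, below the filter on low counts.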
